A study of Mus musculus with 4 samples.

Results

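Binding of PRDM6, a PR domain protein with zinc fingers, was examined at 10 genes of the bone morphogenetic protein (BMP) pathway: the ligands Bmp2, Bmp4, Bmp5, Bmp6 and Bmp7, the receptors Bmpr1a and Bmpr2, the antagonists Grem1 and Nog, and the target gene Id1. A gene was counted as bound where the deposited annotation of the PRDM6 peaks gave its symbol. Of the 10 genes, 6 had such a peak, and together they held 15 of the 13977 peaks. The annotation named 5243 gene symbols in all. The cells were smooth muscle cells (SMCs) grown from the outflow tract arteries of late-gestation mouse embryos. The study's methods describe their source as Prdm6 fl/fl embryos, in which the floxed gene stays intact without Cre. All 4 samples came from cells given a lentivirus that overexpresses FLAG-tagged PRDM6. In the PRDM6 ChIP group (2 libraries) chromatin was precipitated with an anti-FLAG antibody, and in the Input group (2 libraries) it was not. Input enters the data only through the peak calls, so no Input value can be set beside a peak. The peaks therefore record an overexpressed, tagged protein. The assay reads binding and not transcripts, so neither the markers of the cell type nor the activity of any BMP gene could be checked here.

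BMPs are secreted dimers that bring together type I receptors, such as Bmpr1a, and type II receptors, such as Bmpr2, on the cell surface. The type II receptor phosphorylates the type I receptor, which phosphorylates Smad1, Smad5 and Smad9. These enter the nucleus with Smad4 and switch on targets such as Id1. Grem1 and Nog (noggin) are secreted proteins that bind the ligands and keep them from their receptors. In the heart, BMP signals act on the outflow tract cushions and the neural crest cells that form the wall of the great arteries, and loss of BMPR2 is a known cause of heritable pulmonary arterial hypertension.

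The bound genes were 4 of the 5 ligands and both receptors, whereas neither antagonist nor Id1 had a peak. The ligands held 8 peaks and the receptors held 7. Among all 21728 protein-coding genes 4314 had an assigned peak (19.9%), against 6 of the 10 BMP genes. This share grew with gene length in the whole annotation, from 7.55% of genes up to 10 kb to 16.1% from 10 to 50 kb, 35.8% from 50 to 100 kb and 55.3% above 100 kb. Of the bound genes, Bmp5 (125 kb), Bmp6 (155 kb) and Bmpr2 (116 kb) belonged to the longest class and Bmpr1a (92.6 kb) to the next, while Bmp2 (10.7 kb) and Bmp4 (7.15 kb) were short. Of the genes without a peak, Id1 (1.16 kb), Nog (1.70 kb) and Grem1 (12.5 kb) were short, and Bmp7 was 72.3 kb long. The part of gene length in the count of bound BMP genes was not tested.

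The 5 promoter peaks, which the annotation defines as lying within 3 kb of a transcription start site (TSS), belonged to Bmpr1a and Bmpr2. No ligand peak was at a promoter. Over the whole list 2976 peaks (21.3%) were at promoters, and of the 21 peaks of other BMP receptors and co-receptors 3 were. A difference between ligands and receptors was not tested. Of the 8 ligand peaks, 5 were annotated as intronic (35.9% of all peaks), 2 as distal intergenic (37.2%) and 1 as exonic (4.10%). Their summits lay 46.4 to 113 kb from the 5′ end of the gene. A peak up to 10 kb from the TSS was assigned to 2 of the 10 genes, Bmpr1a and Bmpr2, and to 11.7% of all protein-coding genes. In the map of peaks around each gene, all receptor peaks but 1 sit on or close to the TSS, the Bmp5 and Bmp6 peaks inside the gene, and the Bmp2 and Bmp4 peaks upstream.

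**Figure D1:**
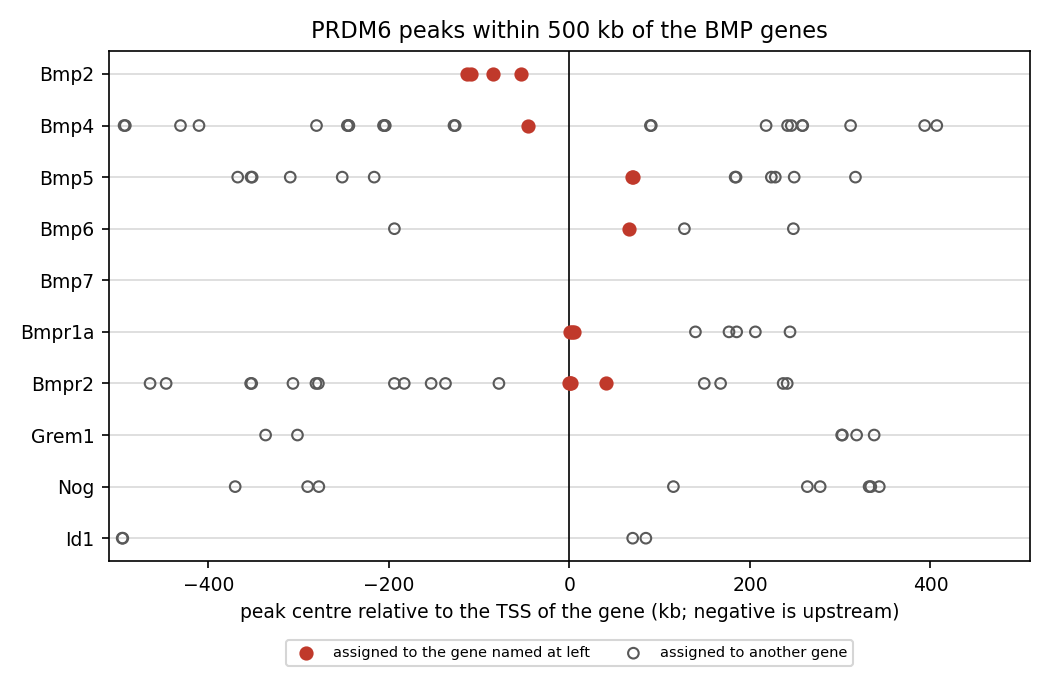
Position of every PRDM6 peak within 500 kb of the TSS of each BMP gene, in kb along the direction of the gene; filled points are peaks the annotation assigned to that gene and open points are peaks assigned to another gene. All 3 Bmpr1a peaks and 3 of the 4 Bmpr2 peaks lie at or near the TSS, those of Bmp2 lie 53.1 to 113 kb upstream, and Bmp7 has no point.

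The strength of a peak is given here as its MACS2 −log10 p-value against the input of the same replicate, since the list held no signal values. The replicates carry no label in the list and are called first-listed and second-listed here. The matched value is the smaller one of the pair. The irreproducible discovery rate (IDR) is low for a peak that ranks high in both replicates, and the list scales it to a score of up to 1000. Of the 15 BMP peaks, 1 (6.67%) reached a global IDR of 0.05 or lower, which is a score of 540, and 3.33% of the whole list did. The median matched value was 5.84 for the BMP peaks (range 3.35 to 20.99) and 5.53 for all peaks. In the first-listed replicate the BMP median was 8.52 against 6.92 for all peaks, and in the second-listed one 7.42 against 6.61. At the lowest score, 48, were 3 of the 15 BMP peaks and 41.4% of all peaks. Each value is that of 1 peak in 1 library, and no spread between cultures can be given.

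**Figure D2:**
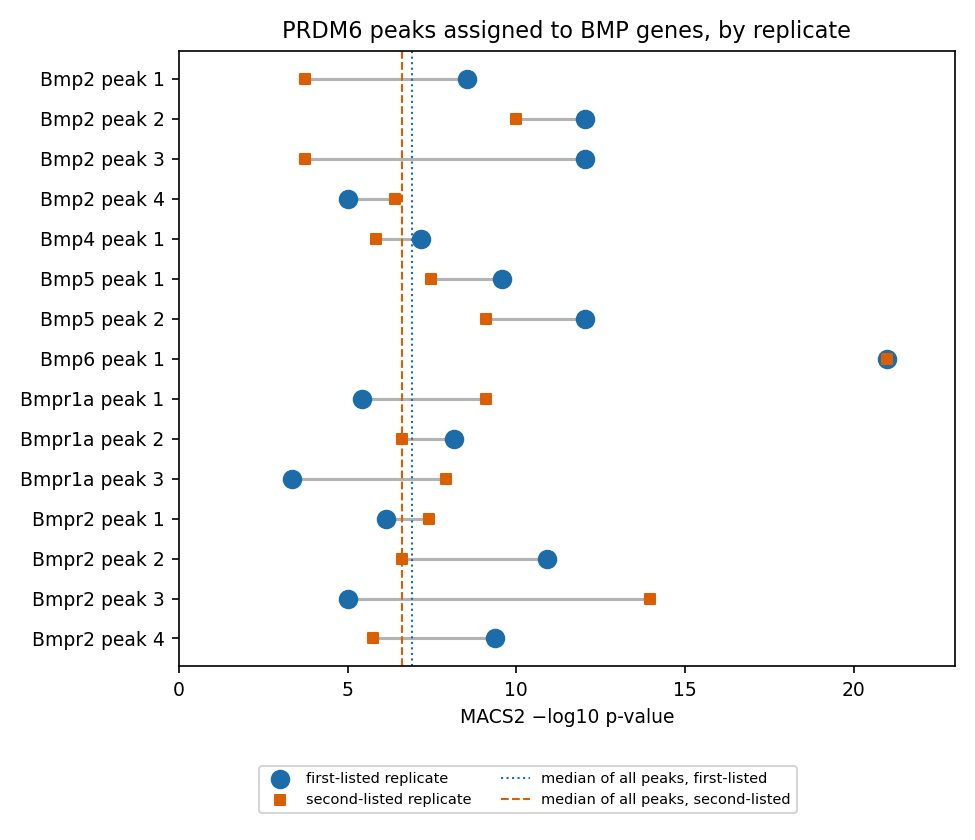
MACS2 −log10 p-value of each of the 15 peaks in the first-listed (circles) and second-listed (squares) replicate, with dotted and dashed lines at the medians of all 13977 peaks, 6.92 and 6.61. The Bmp6 peak stands at 21.00 and 20.99, and the replicates are farthest apart at Bmpr2 peak 3 and Bmp2 peak 3.

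Bmp6, a ligand of the same subgroup as Bmp5 and Bmp7, had the strongest BMP peak. It was a single peak at chr13:38410243-38410882 (mm10), in intron 1 of the 6 introns of the full-length transcript. Its −log10 p-value was 21.00 in the first-listed and 20.99 in the second-listed replicate. It had the highest score, 1000, and a global IDR of 0.00155, and its matched value had rank 23 in the list, above 99.8% of all peaks. The summits of the replicates lay 115 bp apart. The annotation measured 15798 bp to a TSS, but that is the start of a shorter Bmp6 transcript. From the 5′ end of the gene the summit was 65.6 kb downstream. Another peak inside Bmp6, in its intron 2, was assigned by the annotation to the neighbouring transcript 4930579J19Rik. It was weaker, with −log10 p-values of 6.15 and 6.61 and a score of 126.

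Bmp5, a ligand closely related to Bmp6, had a pair of peaks in intron 3, separated by 294 bp. The first, chr9:75844140-75845652, was 1513 bp wide and had −log10 p-values of 9.57 in the first-listed and 7.47 in the second-listed replicate (score 231). The second, chr9:75845947-75846577, had values of 12.03 and 9.10 (score 359, global IDR 0.135). Both peaks were above the median of all peaks in both replicates. The replicate summits of the second peak lay 6 bp apart, and those of the wide peak 458 bp apart. The summits were 69.3 and 70.7 kb from the 5′ end of Bmp5. The distances in the annotation, 16118 and 17925 bp, start from a non-coding transcript inside the gene.

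The sequences around the summits of the strongest Bmp6 and Bmp5 peaks follow, because these are the strongest sites inside the ligand genes. They are the plus strand of mm10 at chr13:38410595-38410795 and chr9:75845986-75846186, with 100 bp on each side of the matched summit. Capitals mark an AP-1 site in the Bmp6 sequence and a TEAD site in the Bmp5 sequence.

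Bmp6 intron 1: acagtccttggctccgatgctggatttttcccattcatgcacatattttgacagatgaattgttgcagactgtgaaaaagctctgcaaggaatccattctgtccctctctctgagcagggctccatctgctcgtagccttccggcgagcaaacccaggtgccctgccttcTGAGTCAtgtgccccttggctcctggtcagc

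Bmp5 intron 3: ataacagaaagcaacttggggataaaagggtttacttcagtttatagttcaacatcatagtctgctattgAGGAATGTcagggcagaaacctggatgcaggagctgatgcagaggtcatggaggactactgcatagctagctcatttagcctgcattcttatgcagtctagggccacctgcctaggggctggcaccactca

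Bmp2, a ligand that drives cushion formation and the endocardial to mesenchymal transition in the heart, had 4 peaks, all upstream of the gene over a span of 60.5 kb. These were also the only peaks within 500 kb of its TSS on either side. The farthest, chr2:133438616-133439263, lay 112896 bp upstream and had −log10 p-values of 8.52 and 3.73 in the first-listed and second-listed replicate (score 48). The next, chr2:133443158-133444023, lay 108136 bp upstream and had values of 12.03 and 9.98 (score 394, global IDR 0.112). This was the strongest of the 4, with a matched value above 92.7% of all peaks and replicate summits 22 bp apart. Both of these peaks lay in intron 1 of the lincRNA A430048G15Rik. The third peak, chr2:133467231-133468676, was 83483 bp upstream in intergenic sequence, with values of 12.03 and 3.73 (score 93). The fourth, chr2:133498975-133499141, was 53018 bp upstream and only 167 bp wide, with values of 4.996 and 6.39 (score 48). Hence 1 of the 4 Bmp2 peaks was above the median of all peaks in both replicates. A further 2 were above it in the first-listed replicate alone.

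Bmp4, a close relative of Bmp2 that is needed for septation of the outflow tract, had 1 assigned peak, chr14:46436786-46437271, 46117 bp upstream of its TSS. Its −log10 p-value was 7.17 in the first-listed and 5.84 in the second-listed replicate (score 137, global IDR 0.468). The annotation called it exonic for exon 1 of a non-coding transcript. That exon belongs to the lincRNA Gm15221, and 63 bp of it fell within the peak, away from the summit. The peak was above the median of all peaks in the first-listed replicate and below it in the second-listed one.

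The strongest Bmp2 peak and the Bmp4 peak are shown as the upstream sites of these ligands, at chr2:133443374-133443574 and chr14:46437013-46437213 (mm10, plus strand, 100 bp on each side of the matched summit). None of the motifs searched was found in either window, so there are no capitals.

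Bmp2 upstream: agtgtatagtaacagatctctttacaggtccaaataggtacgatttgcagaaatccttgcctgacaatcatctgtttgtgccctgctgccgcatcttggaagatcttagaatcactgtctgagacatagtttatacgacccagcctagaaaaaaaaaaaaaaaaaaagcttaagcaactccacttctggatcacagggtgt

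Bmp4 upstream: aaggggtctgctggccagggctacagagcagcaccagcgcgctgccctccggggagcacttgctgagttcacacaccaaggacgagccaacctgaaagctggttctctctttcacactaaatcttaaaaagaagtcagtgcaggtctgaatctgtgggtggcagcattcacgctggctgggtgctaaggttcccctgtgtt

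Bmpr2, the type II receptor, had 4 peaks, of which 3 lay at its promoter within a stretch from chr1:59762930 to 59765634 that was interrupted by gaps of 216 and 100 bp. The first, chr1:59762930-59763302, ended 98 bp before the TSS and had −log10 p-values of 6.13 in the first-listed and 7.42 in the second-listed replicate (score 125). The second, chr1:59763519-59763768, lay wholly in the 5′ untranslated part of exon 1, with values of 10.9 and 6.61 (score 185). The third, chr1:59763869-59765634, was 1766 bp wide, wider than 97.1% of all peaks. It ran from exon 1, including all 76 coding bases of that exon, into intron 1. Its values were 4.996 and 13.97 (score 96, global IDR 0.589), and its matched summit lay 167 bp beyond the nearer replicate summit. The fourth, chr1:59804209-59804581, was 40809 bp inside the gene and within the single exon of the transcript model Gm38125, with values of 9.37 and 5.77 (score 119). At Bmpr2 the replicates therefore ranked the promoter peaks in opposite order. The second peak was the highest in the first-listed replicate and the lowest in the second-listed replicate, and the third peak was the reverse. Merging of peaks less than 1 kb apart made the 3 promoter peaks of Bmpr2 a single region, and did the same for the pair of Bmp5.

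Bmpr1a, a type I receptor, had 3 peaks within 5.7 kb at the start of the gene, which is transcribed from the minus strand and has several TSSs. The peak chr14:34502855-34503112 lay between these TSSs, 168 bp upstream of one of them, with −log10 p-values of 3.35 in the first-listed and 7.92 in the second-listed replicate (score 48). The peak chr14:34500554-34501211 was 1317 bp downstream of a TSS, with values of 8.15 and 6.61 (score 154, global IDR 0.427). The peak chr14:34497442-34497976 was in intron 1 of 12, with values of 5.42 and 9.10 (score 109). No Bmpr1a peak was above the median of all peaks in both replicates. The second-listed value of the middle peak, 6.61, equalled the median of all peaks.

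The promoter windows of the receptors are shown for their base composition, at chr1:59762992-59763192 and chr14:34502870-34503070 (mm10, plus strand, 100 bp on each side of the matched summit). In the Bmpr1a sequence, capitals mark the GC element bound by BMP Smads.

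Bmpr2 promoter: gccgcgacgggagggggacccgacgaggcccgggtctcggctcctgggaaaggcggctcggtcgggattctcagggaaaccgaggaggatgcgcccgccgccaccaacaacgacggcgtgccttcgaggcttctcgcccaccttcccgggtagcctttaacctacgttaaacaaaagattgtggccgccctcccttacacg

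Bmpr1a promoter: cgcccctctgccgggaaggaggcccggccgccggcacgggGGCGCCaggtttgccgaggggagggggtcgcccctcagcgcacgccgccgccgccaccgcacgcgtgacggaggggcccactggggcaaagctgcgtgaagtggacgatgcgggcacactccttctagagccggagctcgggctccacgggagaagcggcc

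Among the BMP peaks, the windows richest in G and C were at receptor peaks next to a TSS. Within 100 bp of the summit, G and C made up 65.7% at Bmpr2 peak 1, 72.6% at Bmpr2 peak 2 and 75.6% at the Bmpr1a peak between the TSSs, with 23, 20 and 25 CpG dinucleotides. The median was 48.8% and 4 CpGs for all 2976 promoter peaks and 42.8% and 2 CpGs for all other peaks. Promoter peaks reach up to 3 kb from a TSS, and they ranged from 24.9% to 81.1%. Peaks equally near a TSS were not compared separately. The other receptor peaks held 37.8% to 44.8%, and the ligand peaks held 31.3% to 55.7% with 0 to 5 CpGs. The 44.8% is that of Bmpr2 peak 3, which the annotation also places within 1 kb of the TSS. Its window is centred on the matched summit, 1.54 kb from the TSS and 167 bp beyond the nearer replicate summit. The G and C content at its replicate summits was not measured. In both receptors, the windows rich in G and C were those centred nearest an annotated TSS.

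**Figure D3:**
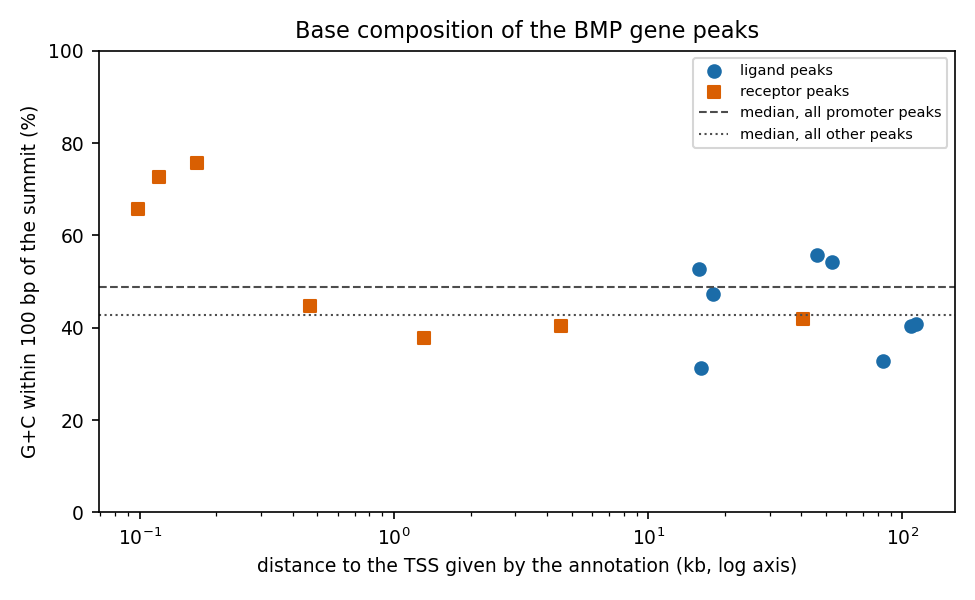
Percentage of G and C within 100 bp of the matched summit for each ligand (circles) and receptor (squares) peak, against the distance to the annotated TSS in kb on a log axis. Lines mark the medians of all promoter peaks (48.8%) and all other peaks (42.8%), and the 3 receptor peaks nearest a TSS stand at 65.7%, 72.6% and 75.6%.

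Motifs of AP-1 and TEAD, factors that the study names at its bound sequences, were searched together with a GC element that BMP Smads bind. The TTTC/AT sequence, which the study cites as a possible site of PRDM6 itself, was not searched. Both strands were read, and the whole match had to lie within 100 bp of the matched summit. AP-1 was spelled TGACTCA or TGAGTCA, which are reverse complements of each other. It was found at 1 of the 15 BMP peaks, Bmp6, where TGAGTCA began 70 bp from the summit, and at 14.3% of all peaks. Of all promoter peaks 8.33% held it, and of all other peaks 15.9%. TEAD was spelled AGGAATGC, AGGAATGT, GGGAATGC or GGGAATGT. It was found at 1 of the 15, the second Bmp5 peak, where AGGAATGT began 30 bp before the summit, and at 7.45% of all peaks. The GC element GGCGCC was found at 1 of the 15, the Bmpr1a peak between the TSSs, and at 2.12% of all peaks and 7.36% of promoter peaks. No spelling of one motif contains another, and no BMP peak held more than 1 of them. When the window was widened to 250 bp, AP-1 was found at 5 of the 15 peaks (33.3%), all of them of Bmp2, Bmp5 and Bmp6, against 30.7% of all peaks. Within 50 bp it was found at 0 of the 15, against 7.61% of all peaks. These are matches of letters and not tests of binding.

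The order of the BMP peaks was compared between replicates. Across the 15 peaks the Spearman correlation of the −log10 p-values between replicates was 0.0594, and across all peaks it was 0.263. Without the promoter peaks it was 0.377 across the other 10 BMP peaks and 0.267 across all such peaks. Those 10 include the Bmp6 peak, the highest BMP peak in both replicates. Across all promoter peaks the correlation was 0.238. These are descriptions over peaks of 1 list, and peaks of a gene lie close together. The first-listed value was the higher one at 7 of the 8 ligand peaks and at 3 of the 7 receptor peaks. In all peaks it was the higher one in 52.1%, and in all promoter peaks in 46.8%. The replicates were farthest apart at Bmpr2 peak 3 (4.996 and 13.97) and at Bmp2 peak 3 (12.03 and 3.73), in opposite directions. The part of library depth in these differences was not tested.

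Peak heights could be read back from part of the p-values, since MACS2 compares the number of stacked fragments with a Poisson background. The genome-wide background was 2.61 fragments in the first-listed and 2.39 in the second-listed replicate, and the median peak that rested on it was 14 and 13 fragments high. These heights take the p-value as the chance of more fragments than were stacked. The Bmp6 peak was 29 and 28 fragments high, the strongest Bmp2 peak 20 and 17, and the second Bmp5 peak 20 and 16. The intronic Bmpr1a peak, with 12 and 16 fragments, was the only other BMP peak readable in both replicates. At the other 11, the value of at least 1 replicate did not match the fitted mean. A peak of 12 to 20 fragments is a small count with a wide counting error.

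The 4 genes without an assigned peak were examined by their neighbourhood, since a peak can be assigned to another gene. Around the TSS of all protein-coding genes the median number of peaks within 500 kb was 4, with quartiles of 1 and 8. Bmp7, a ligand needed for kidney and eye development, had 0 peaks within 500 kb, as had 16.7% of protein-coding genes. Its nearest peak was 512 kb upstream. Grem1 had 6 peaks within 500 kb, none of them nearer than 301 kb. Of these, 4 lay in Fmn1, the neighbouring gene whose introns are known to hold limb enhancers of Grem1. The highest of them, 318.2 kb from the Grem1 TSS and next to a start of Fmn1, had −log10 p-values of 9.37 and 9.10 and a score of 285. Nog had 9 peaks within 500 kb, the nearest 115 kb downstream with values of 10.2 and 9.03 (score 288). A peak 333.9 kb from Nog and assigned to Elobl reached a global IDR of 0.0302, with values of 13.8 and 13.96. Id1 had 4 peaks within 500 kb, and the nearest were in an intron of Bcl2l1, 70.1 and 84.7 kb downstream, both at the lowest score.

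The neighbourhood of Bmp4 held more peaks than its single assigned one. It had 24 peaks within 500 kb of the TSS, 14 upstream and 10 downstream, and 99.0% of protein-coding genes had fewer. Of these 24 peaks, 23 were assigned to other genes, among them 8 to the neighbouring gene model Gm15217, protein-coding in GENCODE, and 6 to Rubie, a non-coding RNA gene upstream of Bmp4. The highest downstream peak, 257.9 kb away, had −log10 p-values of 10.2 and 11.8 (score 398). The highest upstream one, 126.5 kb away and assigned to Rubie, had values of 12.03 and 9.98 (score 383). None of the 24 reached a global IDR of 0.05. When peaks were assigned to the nearest protein-coding TSS instead, Bmp4 had 3 peaks, of which 2 had been given to Rubie, and the count of every other BMP gene stayed as it was. Around Bmpr2 there were 20 peaks, 16 of them assigned to other genes, and 97.4% of protein-coding genes had fewer. One, 153.2 kb upstream and assigned to Gm973, had a score of 779. Bmp5 had 14 peaks, Bmpr1a 8, and Bmp2 and Bmp6 4 each. These windows are shared with neighbouring genes, and peaks lay at 4.67 to 7.22 per Mb on the chromosomes of the 10 genes.

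**Figure D4:**
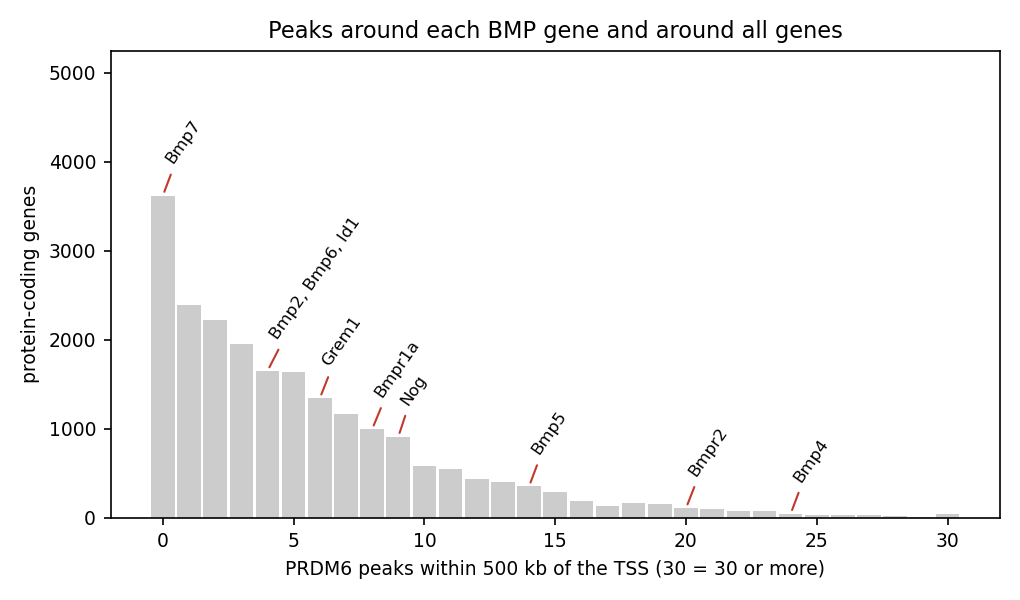
Number of protein-coding genes (bars) by the number of PRDM6 peaks within 500 kb of their TSS, with the position of each BMP gene marked. Bmp7 falls in the bar at 0, Bmp2, Bmp6 and Id1 at the median of 4, and Bmpr2 and Bmp4 at 20 and 24.

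The other genes of the pathway were taken from a list of 47, of which 19 (40.4%) had an assigned peak, against 19.9% of all protein-coding genes, with 84 peaks in all. None of the 9 other ligands, among them Bmp10, Gdf2 and Gdf5, had one. Of the 9 other receptors and co-receptors 5 had a peak, of the 15 other antagonists and modulators 4, of the 8 Smads and Smurf ubiquitin ligases 6, and of the 6 other targets 4. The part of gene length in these counts was not tested. A peak with a global IDR of 0.05 or lower was found at 3 of these 47 genes and at 1 of the 10 BMP genes, Bmp6, against 1.60% of all protein-coding genes. Smurf2, which marks receptors and Smads for breakdown, had a peak 33.1 kb upstream with −log10 p-values of 18.2 and 20.99 and the highest score, 1000. Id3, a relative of Id1, had one 19.4 kb upstream with values of 17.9 and 12.8 (score 719), besides a peak on its TSS at the lowest score. Smad6, an inhibitory Smad, had one 88.9 kb from its annotated TSS with values of 15.9 and 11.8 (score 619). These 3 peaks, like that of Bmp6, lay outside promoters, as did 396 of the 465 peaks of the whole list with such an IDR.

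**Figure D5:**
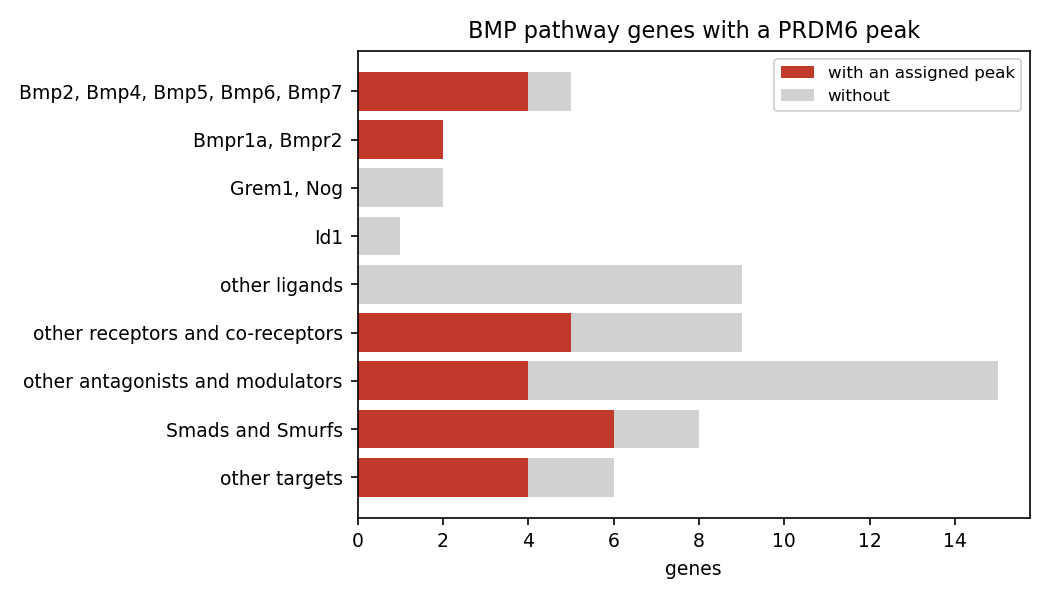
Number of genes with (red) and without (grey) an assigned PRDM6 peak in each group of the BMP pathway. Among ligands, 4 of the 5 in the top bar and 0 of the 9 others have a peak, and among the Smads and Smurfs 6 of 8 do.

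Of the 84 peaks of this wider list 26 were at promoters, against 21.3% of all peaks, and 51.2% had the lowest score, against 41.4% of all peaks. The GC element of the BMP Smads was found at 4 of these 84 peaks (4.76%, against 2.12% of all peaks and 7.36% of promoter peaks), among them the peaks on the TSS of Smad1 and 2.38 kb upstream of Id3. AP-1 was found at 5 of the 84 (5.95%, against 14.3% of all peaks and 8.33% of promoter peaks). TEAD was found at 7 (8.33%, against 7.45% of all peaks and 6.25% of promoter peaks). Smad1, which carries the BMP signal, had 5 peaks, 1 of them on its TSS with values of 5.42 and 5.84 (score 48). Smad7, the other inhibitory Smad, had 6, and the one on its TSS had values of 8.75 and 5.84 (score 122). Rgma, a BMP co-receptor, had a single peak, on its TSS, with values of 5.02 and 9.10 (score 104). The genes with the most peaks were Bmper with 13, Acvr2a with 10 and Fstl1 with 8. Bmper encodes a secreted BMP binding protein, and its 13 peaks included 1 only 63 bp upstream of the TSS and a highest score of 310. Of the 10 peaks of Acvr2a, a type II receptor, 9 lay more than 100 kb from its TSS, up to 1420 kb away, and 1 lay 19 bp from it (score 99). Fstl1 had 1 peak on its TSS (score 48) and a highest score of 358. Of the 4314 protein-coding genes with a peak, 1.39% had 13 or more.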

How the data were processed

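Chromatin of outflow tract SMCs was profiled by ChIP-Seq in 2 PRDM6 ChIP and 2 Input libraries. Per the study's methods and the labels, the authors filtered paired reads, aligned them to mm10 with BWA, called peaks in each replicate against its own input with MACS2, and matched the replicates by IDR. The study describes the replicates both as independent and as made from the same sample. The deposited values are MACS2 −log10 p-values, −log10 IDR values and a scaled IDR score, and the authors' input entered only through the peak calls. The columns for signal and q-value held a placeholder in the peak list, and the column headed as a q-value in the annotation equalled the second-listed −log10 p-value in all 13977 rows.

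From these files, peaks were chosen by gene symbol in the deposited annotation. Gene models came from GENCODE M21 (basic set) and sequence from GRCm38.p6, both of the mm10 build. For the neighbourhoods, the map and the nearest-TSS assignment, the TSS of a gene was its 5′ end, and peaks were placed by their centre. The 10 kb limit, the peaks on a TSS, the distances of the wider list and the distances to a TSS in bp came from the annotation. It measures from the edge of the peak to the TSS of a transcript. Fragment heights were read within 0.0002 of a Poisson tail. The motif and height searches were tested on simulated data. All 10 genes and every peak of theirs were named, and of the wider list the genes with a peak on the TSS, a global IDR of at most 0.05 or the 3 highest peak counts. The genes and lists were chosen with earlier results of these data known, so no test was run over them, and values are set beside those of all peaks or genes. Alternatives were other IDR limits, distances, motif windows, assignment and each replicate alone. The tools were matplotlib 3.10.9, SciPy 1.17.1, pandas 2.3.3 and NumPy 2.4.6 under Python 3.11.15.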

Additional observations from a re-analysis of the deposited data

How the results depend on the processing

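With a global IDR of at most 0.05, 1 BMP peak and 1 bound BMP gene (Bmp6) were left, the median strength was 21.0, 3 peaks lay within 500 kb of the BMP genes in place of 93, and 3 of the 47 other pathway genes kept a peak in place of 19. With peaks up to 10 kb from the TSS, 6 peaks of 2 BMP genes (Bmpr1a and Bmpr2) were left, and 34.8% of all peaks were. The median strength was 8.52 in the first-listed and 7.42 in the second-listed replicate alone, since the matched value takes the smaller one of each pair. AP-1 was found at 0 peaks within 50 bp and at 5 within 250 bp of the summit. There were 18 peaks within 100 kb of the 10 genes and 153 within 1 Mb. The changes with the IDR limit, the distances and the windows follow from the narrower or wider limit itself. The other alternatives moved no total over the BMP genes or the wider list by over 1.5 times. Single genes moved more. Bmp4 went from 1 to 3 peaks with the nearest protein-coding TSS, and merging joined the Bmp5 pair and the Bmpr2 promoter peaks. No paired analysis was possible because the list holds no value of the Input group and its replicates carry no label.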
